A study of Rattus norvegicus with 12 samples.

Results

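The cytosolic ribosomal protein genes are the genes whose array symbol is Rpl or Rps followed by a number and at most 2 further characters, together with the P stalk genes Rplp0, Rplp1 and Rplp2 and Rpsa. The ribosomal S6 kinases (Rps6k), symbols with a hyphen and LOC entries were left out. The rule found 83 of 26456 gene names, on 146 of 30367 probes, namely 48 genes of the large subunit, 32 of the small subunit and the 3 P stalk genes. Every gene was represented by its brightest probe, and all 83 of these probes were well above background on 12 of 12 arrays.

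The study asked how a protein-poor maternal diet in pregnancy affects the mammary gland of the female offspring around the onset of puberty. Wistar dams were fed an isocaloric diet with 8.8% protein (LP) or 17% protein (NP) throughout pregnancy, and both groups received standard chow after delivery. Litters were cut to 6 female pups, which were suckled until day 21 and then weaned. Total RNA of the lumbar mammary gland, from which visible lymph nodes had been removed, was hybridised to 1-colour Agilent arrays, 1 array per rat. There were 3 rats each in NP d21 (replicates 4a, 5a and 6a), LP d21 (4a, 6a and 7c), NP d28 (4f, 5f and 6f) and LP d28 (4f, 6f and 7f). The labels do not say which rats were littermates, so that p-values measure the spread between these rats. All d21 arrays lay on slide 1 and all d28 arrays on slide 2, and day and slide therefore cannot be told apart in any comparison of days.

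Ribosomal proteins build the small and the large subunit of the ribosome around the ribosomal RNA, and the P proteins form the stalk that recruits translation factors to the large subunit. Their messenger RNAs are among the most abundant of a cell and carry a terminal oligopyrimidine tract (TOP), a C at the cap followed by a run of C and T, through which the mTORC1 pathway regulates their translation. In the mammary gland, as in other tissues, growth raises the need for ribosomes, which are made in the nucleolus with the help of assembly factors. Some ribosomal protein genes have a paralogue with a restricted pattern, such as Rpl3l of striated muscle and Rpl10l of the testis.

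The tract can be seen at the annotated transcription start of several of the genes described here, shown as 15 bases before and 15 bases from the start (RefSeq, GRCr8). Capitals mark the tract that begins at the start, or the start base alone where no such tract begins there.
Rplp0 (chr12:46718376-46718405, minus strand): gaccgcaccgcacttCTCTCgccaggcgtc
Rplp1 (chr8:71290858-71290887, minus strand): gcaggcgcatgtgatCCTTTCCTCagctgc
Rpl19 (chr10:83519049-83519078, plus strand): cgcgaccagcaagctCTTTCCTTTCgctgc
Rpl31 (chr9:49143096-49143125, plus strand): ccacaatccctcgcgCCTTTCCTTTCCaac
Rps7 (chr6:50999431-50999460, minus strand): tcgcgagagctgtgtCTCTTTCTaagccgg
Rpsa (chr8:128728864-128728893, plus strand): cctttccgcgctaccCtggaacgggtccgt
Rps6 (chr5:106420526-106420555, minus strand): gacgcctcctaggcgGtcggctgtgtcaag
Rpl3l (chr10:14258431-14258460, plus strand): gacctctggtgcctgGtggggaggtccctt
Rpl7l1 (chr9:21695703-21695732, plus strand): agctgcagatgcattGtgggaagcctttaa
Rpl22l1 (chr2:113683181-113683210, plus strand): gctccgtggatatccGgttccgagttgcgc
The first 5 genes, which encode core proteins of the ribosome, are shown as examples with the tract. No tract begins at the annotated start of Rpsa and Rps6, which also encode core proteins, or of Rpl3l, Rpl7l1 and Rpl22l1, which are paralogues of Rpl3, Rpl7 and Rpl22.

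Of the 83 genes, 66 had an entry under their symbol in the promoter table. A C followed by at least 4 pyrimidines (C or T), read on the transcribed strand, began exactly at the start in 24 of 66 (36.4%), compared with 881 of 33469 of all promoters (2.63%). Within 5 bases on either side of the start it was found in 41 of 66 (62.1%) and in 17% of all promoters. Annotated starts can differ from the start in use, so that a missing tract says only that it is not at these bases. In the 300 bases of each promoter, counting both strands, CCGGAAG was present in 31.8% of the ribosomal protein genes and 8.75% of all promoters, AAGATGGC in 7.58% and 3.17%, and TATAAA in 10.6% and 14.2%. The 24 genes with the tract at the start and the 42 without had median log2 differences of 0.27 and 0.23 between the days in NP, and of -0.19 and -0.20 between LP and NP at day 28.

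All levels below are log2 of the processed signal relative to the 75th percentile of the same array, so that a level of 0 is the signal at that percentile. Together the 83 probes held 8.39% ± 0.377 of the summed processed signal in NP d21, 8.15% ± 0.31 in LP d21, 8.92% ± 0.362 in NP d28 and 8.27% ± 0.409 in LP d28 (SD, n = 3). The median level over the 83 genes was 5.95, 5.95 and 5.81 on the NP d21 arrays (4a, 5a and 6a) and 5.82, 5.75 and 5.93 on the LP d21 arrays (4a, 6a and 7c). At day 28 it was 6.19, 6.30 and 6.01 in NP (4f, 5f and 6f) and 5.90, 6.03 and 5.87 in LP (4f, 6f and 7f). NP d28 was thus the high group, with 2 arrays above all others and replicate 6f just below LP d28 replicate 6f. Of the 83 genes, 55 had their highest level of all 12 arrays on NP d28 replicate 5f and 23 on NP d28 replicate 4f, while 32 had their lowest on LP d21 replicate 6a and 31 on NP d21 replicate 6a.

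**Figure D1:**
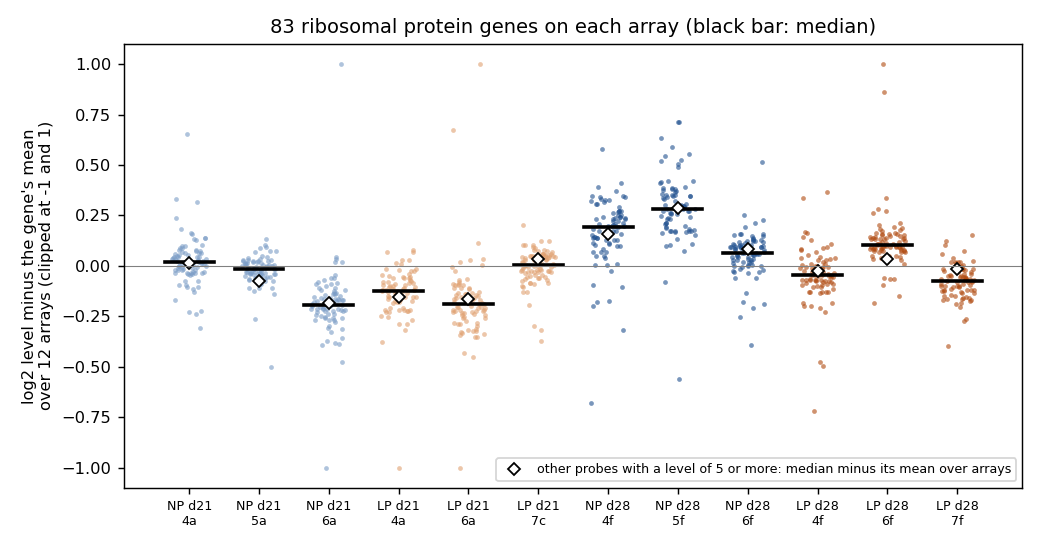
Log2 level of each of the 83 ribosomal protein genes on each array, minus the gene's mean over the 12 arrays (1 point per gene, values beyond -1 or 1 drawn at the edge). Black bars are medians, highest on NP d28 replicates 5f (0.28) and 4f (0.19), and white diamonds are the median of 364 other probes of a mean level of 5 or more, minus its mean over the arrays.

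Several arrays stood apart in the RNA of other cell types. LP d21 replicate 6a had a mean level of -5.25 over 10 T cell markers and of -6.56 over 6 B cell markers, against -0.47 to 0.58 and -2.27 to -0.80 on the other 11 arrays. Skeletal muscle markers (13 of 13 tested) had mean levels of 2.63, 3.06 and 2.55 on NP d21 replicate 6a, LP d21 replicate 6a and LP d28 replicate 6f, and of -4.26 to 0.47 on the other 9. NP d28 replicate 4f, also high in ribosomal protein levels, had the lowest mean level of proliferation markers (-1.24, against -0.03 to 0.56 on the other 11 arrays), of fibroblast markers (3.79, against 4.27 to 4.61) and of basal epithelial markers (-1.03). NP d28 replicate 5f, with the highest ribosomal protein level, also had the lowest 75th percentile of signal (1451.4) and the most spots marked as outliers (766, against 259 to 457). As a check of the mammary label, 10 of 10 luminal epithelial markers were well above background on all 12 arrays. All NP arrays lay in row 1 of their slide, and 2 of 3 LP arrays of each day in row 2, so that diet and row are partly confounded. In bulk RNA, fewer cells of a type and less RNA per cell cannot be told apart.

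At day 21 the ribosomal protein genes of LP and NP rats lay close together. The median log2 difference, LP minus NP, was -0.05 over the 83 genes, which is 0.968-fold, and 60 genes were lower and 23 higher in LP. Over all 23209 tested probes the median was 0.01. No ribosomal protein gene passed an unadjusted limma p of 0.05, where 4.36% of all tested probes did, and none passed an adjusted p of 0.05, as was the case for all tested probes (0%). The median level over the 83 genes varied between the rats of a group with a pooled SD of 0.106.

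Of the 3 highest and the 3 lowest genes of this comparison, Rpl10l (log2 difference 0.66 ± 0.45, SE), Rpl35 (0.12 ± 0.14) and Rpl35a (0.09 ± 0.16) were the highest and Rpl13 (-0.95 ± 0.46), Rpl3l (-0.35 ± 1.01) and Rpl36a (-0.18 ± 0.13) the lowest. Rpl13, a large subunit protein, was at 6.51, 5.95 and 5.81 in NP and at 5.87, 3.88 and 5.66 in LP (4a, 6a and 7c). LP d21 replicate 6a, the array low in lymphocyte markers, was by far the lowest, and the groups overlapped (adjusted p = 0.861). Without that array the difference was -0.32. Rpl13 is measured by 1 spot per array, whose annotated position is on chromosome 8 of rn4. Rps16, a small subunit protein, was the sole gene whose groups did not overlap, at 5.88, 5.98 and 5.92 in NP and 5.77, 5.72 and 5.79 in LP, and 5.94% of all tested probes were likewise lower in LP without overlap. Its log2 difference of -0.17 ± 0.10 did not pass the test (adjusted p = 0.861), and its second probe gave 0.44.

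**Figure D2:**
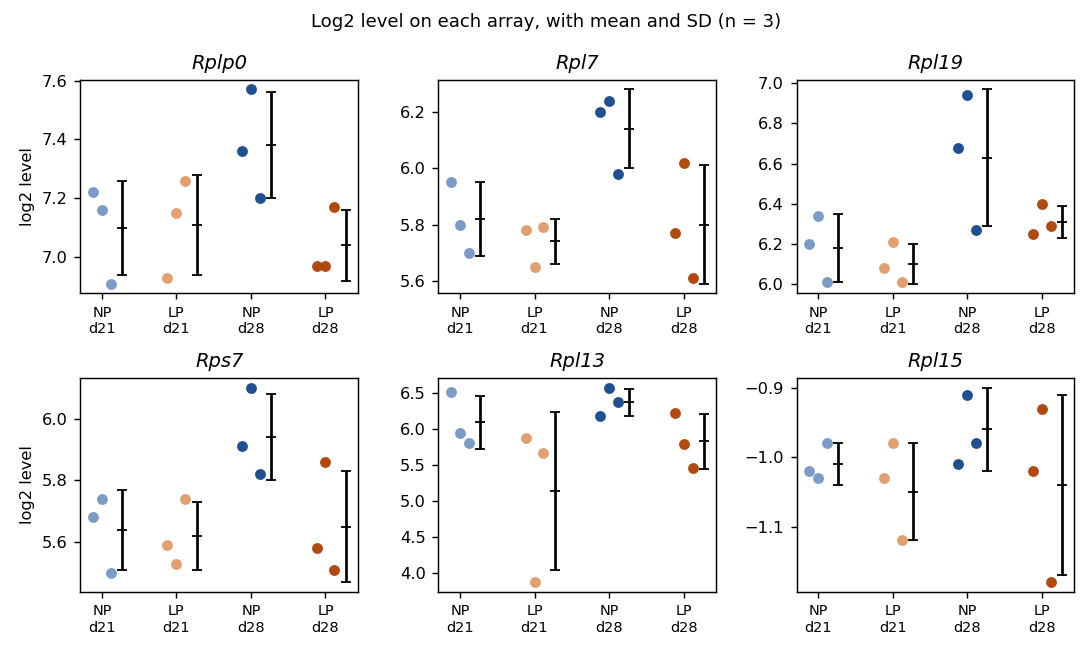
Log2 level of 6 ribosomal protein genes in each rat (points, 3 per group), with mean and SD beside them. For Rplp0 the NP d28 rats (7.20 to 7.57) lie above the LP d28 rats (6.97 to 7.17), and for Rpl13 LP d21 replicate 6a lies at 3.88.

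At day 28 the ribosomal protein genes were mostly lower in LP than in NP rats, by little. The median log2 difference was -0.19, or 0.875-fold, and 79 of 83 genes were lower, against a median of -0.05 and 57.3% lower over all tested probes. None passed an adjusted p of 0.05 (lowest 0.581), and 9 passed an unadjusted p of 0.05, all lower in LP, or 10.8% of the genes against 6.09% of all tested probes. In 18 genes (21.7%) all LP rats were below all NP rats, where 12.4% of all tested probes were. The 4 genes higher in LP were Rpl3l (0.43 ± 1.01), Rpl10l (0.39 ± 0.45), Rpl22l1 (0.03 ± 0.15) and Rpl37a (0.00 ± 0.17), and 3 of them are paralogues. Other paralogues were lower in LP, namely Rps4y2 (-0.24 ± 0.10), Rpl36al (-0.08 ± 0.11) and Rpl7l1 (-0.01 ± 0.11).

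The large subunit (median -0.18, 4 of 48 or 8.33% past the unadjusted p), the small subunit (-0.20, 4 of 32 or 12.5%) and the P stalk (-0.27, 1 of 3) had like differences. Of all tested probes, 6.09% passed it in the lower direction, so that the share of the large subunit was near the background. Rplp0, the scaffold protein of the stalk, was at 7.36, 7.57 and 7.20 in NP and at 6.97, 6.97 and 7.17 in LP. The groups did not overlap, and the log2 difference was -0.34 ± 0.14 (adjusted p = 0.581), although the second probe of Rplp0 gave -0.06. Rpl7, a large subunit protein that contacts the ribosomal RNA, was at 6.20, 6.24 and 5.98 in NP and at 5.77, 6.02 and 5.61 in LP. Here LP replicate 6f lay above NP replicate 6f, and the difference was -0.34 ± 0.13 (adjusted p = 0.581). Rpl13 had the largest difference in size among the lower genes with -0.55 ± 0.46, at 6.18, 6.57 and 6.37 in NP and 6.22, 5.79 and 5.46 in LP, which overlapped. With the row on the slide in the fit it was 0.02, while the median of the 83 genes was -0.21. The other genes past the unadjusted p were Rpl8, Rps4y2, Rps7, Rps21, Rpl4, Rps15a and Rpl21, with differences of -0.29 to -0.22. The second probe of Rps4y2, dimmer than the first (mean level 0.28 against 3.70), gave a difference of 0.28 in the other direction.

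The T cell markers differed in the same direction at day 28, with means of 0.58, 0.49 and 0.17 in NP and 0.06, 0.04 and -0.47 in LP, and 10 of 10 had a lower mean in LP, while 0 passed the unadjusted p. Of the 10 luminal epithelial markers, 10 were higher in LP (median 0.56, none past the unadjusted p). Their part in the ribosomal protein difference was not tested. Leaving out NP replicate 5f reduced the 9 genes past the unadjusted p to 0 and leaving out LP replicate 4f or 7f to 1 each, whereas it rose to 20 without NP replicate 6f and to 19 without LP replicate 6f. It was 16 without the 3 arrays highest in skeletal muscle markers. The share of all tested probes was not counted with arrays left out, so that these counts have no background beside them. The median stayed between -0.25 and -0.14 without any one array.

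**Figure D3:**
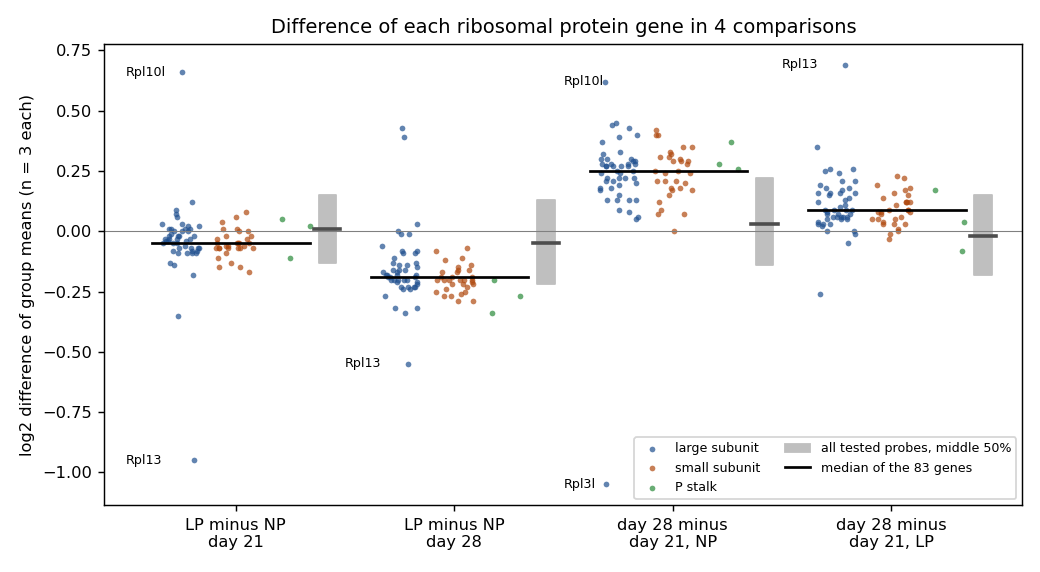
Log2 difference of each of the 83 ribosomal protein genes (1 point per gene, by subunit) in 4 comparisons of 3 rats with 3. Black lines are the medians of the 83 genes (-0.05, -0.19, 0.25 and 0.09), and grey bars span the middle 50% of all tested probes with their median as a dark line.

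Between day 21 and day 28, nearly every ribosomal protein gene was higher at the later day in NP rats. The median log2 difference was 0.25 (1.19-fold), 82 of 83 genes were higher, and 34 passed an unadjusted p of 0.05, all higher at day 28, or 41% of the genes against 7.9% of all tested probes. In 44 genes (53%) all NP d28 rats lay above all NP d21 rats, against 11.7% of all tested probes. None passed an adjusted p of 0.05 (lowest 0.167), while 0.25% of all tested probes did. The median over all tested probes was 0.03. The skeletal muscle, erythroid and proliferation marker lists had lower medians at day 28 on the same step. Skeletal muscle had the lowest (-1.83), with 13 of 13 markers lower and 0 past the unadjusted p. The mean level of these 13 was 0.47, -0.80 and 2.63 on the NP d21 arrays (4a, 5a and 6a). It was -2.03, -0.73 and -0.46 on the NP d28 arrays (4f, 5f and 6f). Both tested erythroid markers were lower at day 28 in NP (median -1.19), of which Alas2, the first enzyme of heme synthesis in red cell precursors, passed the test (-1.90 ± 0.28, adjusted p = 0.0375), and Hbb had -0.48 (adjusted p = 0.306). Proliferation markers were lower in 8 of 10 (median -0.60), 1 of them past the unadjusted p (10%, against 4.9% of all tested probes). Their mean level was 0.41, 0.22 and -0.03 on the NP d21 arrays (4a, 5a and 6a). On the NP d28 arrays it was -1.24, 0.11 and 0.19 (4f, 5f and 6f), so that only replicate 4f lay below the range of d21. In LP the medians of the skeletal muscle, erythroid and proliferation markers were -0.95, -1.15 and -0.32. Their part in the ribosomal protein difference was not tested.

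Rpl27, a large subunit protein, had the lowest adjusted p, at 5.50, 5.20 and 5.25 on d21 and 5.66, 5.75 and 5.66 on d28 (log2 difference 0.37 ± 0.10, adjusted p = 0.167). The 3 highest genes were Rpl10l (0.62 ± 0.45), Rpl19 (0.45 ± 0.16) and Rpl35 (0.44 ± 0.14). Rpl19 was at 6.20, 6.34 and 6.01 on d21 and at 6.68, 6.94 and 6.27 on d28, so that NP d28 replicate 6f lay within the range of d21. Rpl35 did not overlap, with 6.33, 6.55 and 6.24 on d21 and 6.65, 7.09 and 6.69 on d28. The second probe of Rpl19 gave 0.08 on this step, and the further probes of Rpl35 gave 0.21 and 0.34. Rps27a, which is made as a fusion with ubiquitin, was at 5.54, 5.60 and 5.43 and then at 5.80, 6.21 and 5.75 (0.40 ± 0.14, adjusted p = 0.275). Rpsa, a small subunit protein that is also known as the laminin receptor, was at 4.69, 4.85 and 4.85 and then at 4.97, 5.29 and 5.17 (0.35 ± 0.12, adjusted p = 0.271). Of the P stalk, Rplp1 (0.37 ± 0.13) and Rplp2 (0.26 ± 0.11) passed the unadjusted p and did not overlap, and Rplp0 (0.28 ± 0.14, adjusted p = 0.421) did neither.

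Among the lowest genes were Rpl3l (-1.05 ± 1.01) and Rpl15 (0.05 ± 0.09). Rpl15 is read by a single dim probe, at -1.02, -1.03 and -0.98 and then at -1.01, -0.91 and -0.98. Rps6, the substrate of the S6 kinases, was at 5.57, 5.71 and 5.58 and then at 5.67, 6.01 and 5.82 (0.21 ± 0.11, adjusted p = 0.466), and Rpl41, which encodes a very short peptide, at 7.61, 7.54 and 7.33 and then at 7.40, 8.10 and 7.69 (0.24 ± 0.18, adjusted p = 0.624). The count of 34 fell to 6 without NP d28 replicate 5f and to 7 without NP d21 replicate 6a, and it was between 23 and 42 without any of the other 4 arrays. Without the 3 arrays highest in skeletal muscle markers it was 6, with a median of 0.18. Here, too, the share of all tested probes was not counted with arrays left out. The medians lay between 0.18 and 0.31 without any one array.

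In LP rats, too, most of the genes were higher at the later day, with smaller differences. The median was 0.09 (1.06-fold) against -0.02 over all tested probes, 75 of 83 genes were higher at day 28, and none passed an unadjusted p of 0.05, where 10.1% of all tested probes did in either direction. In 8 genes (9.64%) the days did not overlap, all higher at day 28, against 7.17% of all tested probes. The highest genes were Rpl13 (0.69 ± 0.46), again through LP d21 replicate 6a, Rpl10l (0.35 ± 0.45) and Rpl23a (0.26 ± 0.14), and the lowest Rpl3l (-0.26 ± 1.01), Rplp0 (-0.08 ± 0.14) and Rpl11 (-0.05 ± 0.12). Rpl23a was at 3.51, 3.32 and 3.45 and then at 3.72, 3.85 and 3.50, and Rpl11, which also binds the p53 regulator Mdm2, at 6.05, 6.25 and 6.31 and then at 6.24, 6.08 and 6.15. The adjusted p of 0.05 was passed by none of the genes and by 0% of all tested probes.

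Whether the diet difference changed between the days was tested as an interaction. It was more negative at day 28 in 78 of 83 genes with a median of -0.14 (all tested probes -0.04), and none passed an unadjusted p of 0.05 (2.26% of all tested probes) or an adjusted one (0%). Rps4y2, a paralogue of the small subunit gene Rps4x, had -0.32 ± 0.14, and Rpl31 had the most negative value with -0.38 ± 0.21. The second probes gave -0.41 for Rps4y2 and -0.10 for Rpl31. The step between the days, with medians of 0.25 in NP and 0.09 in LP, thus differed between the diets in no single gene past the test.

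Other bright probes moved in the same directions. The genes lie near the top of the signal scale, and 69 of them had a mean level of 5 or more, as had 364 probes of other genes. Between the days in NP, these 364 probes had a median difference of 0.23 with 89.3% higher, and the 69 genes had 0.25 with 100% higher. Upward past the unadjusted p were 34.3% of the 364 probes and 40.6% of the 69 genes. At day 28 the LP minus NP medians were -0.16 and -0.20, and 14.8% of the 364 probes but 11.6% of the 69 genes passed the unadjusted p in the lower direction. On NP d28 replicate 5f the other bright probes were at a median of 5.94, their highest of all arrays. After quantile normalization, which gives all arrays the same distribution of signal, the medians of the 83 genes became 0.04 between the days in NP and -0.05 between LP and NP at day 28, and 2 and 0 genes passed the unadjusted p. The part of the general shift of bright probes in the values above was not tested.

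At mean levels between 2 and 5 the genes, few in number, and the other probes were further apart. The 5 genes with a mean level between 2 and 4 (Rpl23a, Rpl36al, Rps25, Rps26 and Rps4y2) had differences of 0.39, 0.28, 0.31, 0.17 and 0.33 between the days in NP, with a median of 0.31 against 0.04 for the other probes of that range. For the 5 genes between 4 and 5 (Rpl17, Rpl22l1, Rpl37, Rps4x and Rpsa) the median was 0.27, against 0.16 for 387 other probes. Rpl7l1, the single gene between 0 and 2, was at 1.04, 1.11 and 1.16 and then at 1.04, 1.40 and 1.12 (0.08 ± 0.11). The other probes of that range had a median of 0.02. Between -2 and 0, Rpl15 had 0.05 and Rpl10l 0.62, against a median of 0.01 for the other probes.

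**Figure D4:**
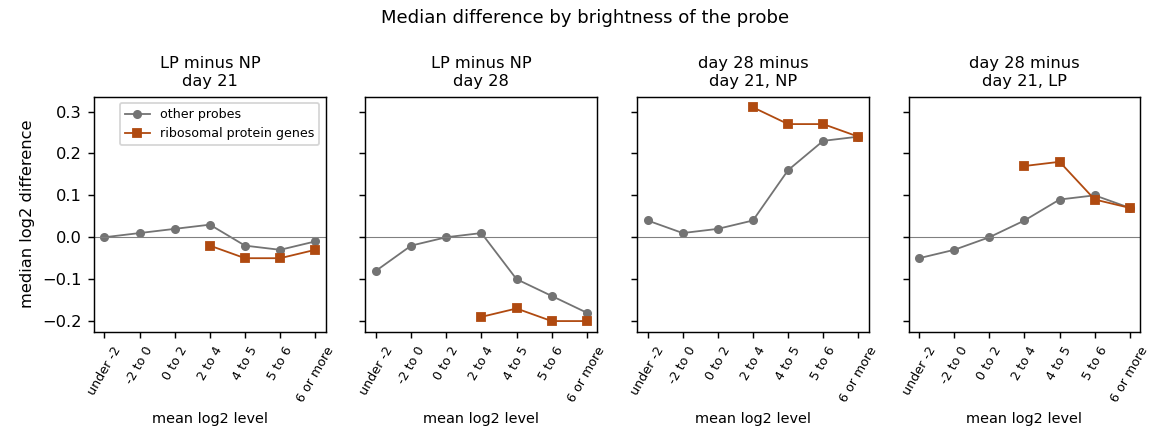
Median log2 difference by mean log2 level of the probe in 4 comparisons, for probes of other genes (circles) and ribosomal protein genes (squares, ranges with at least 5 genes). Between the days in NP the other probes rise from 0.04 at a level of 2 to 4 to 0.24 at 6 or more, and the ribosomal protein genes lie between 0.24 and 0.31.

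Rpl3l varied most, with an SD of 1.24 over the 12 arrays, followed by Rpl13 (0.71) and Rpl10l (0.65). The paralogues Rpl22l1 (0.17), Rps4y2 (0.16), Rpl36al (0.16) and Rpl7l1 (0.10) varied less than Rps14 and Rpl19 (0.27 each). Rpl3l was at -2.98, -3.80 and -1.61 in NP d21 (4a, 5a and 6a), at -4.66, -1.11 and -3.67 in LP d21 (4a, 6a and 7c), at -3.98, -3.86 and -3.69 in NP d28 (4f, 5f and 6f) and at -4.02, -1.45 and -4.75 in LP d28 (4f, 6f and 7f). The 3 arrays above -2 were those highest in the skeletal muscle markers. Rpl3, its widely expressed counterpart, stayed between 5.73 and 6.13 on all 12 arrays. The probe of Rpl3l lies on chr10:13991825-13991884 of rn4 on the plus strand and is shown because its signal separates these arrays.
Rpl3l probe: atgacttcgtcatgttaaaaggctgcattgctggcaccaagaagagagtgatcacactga
Rpl10l ranged from -3.52 on NP d21 replicate 6a to -1.12 on LP d28 replicate 6f. It is read by 1 spot per array, whose probe lies on chr6:87930295-87930354 of rn4 on the minus strand.
Rpl10l probe: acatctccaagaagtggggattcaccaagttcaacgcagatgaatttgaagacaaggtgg
Its X-linked counterpart Rpl10 stayed between 6.33 and 6.70. Rpl22l1 was at 3.82 to 4.48 and Rpl22 at 5.43 to 5.98, and in NP the step between the days was 0.09 ± 0.15 and 0.27 ± 0.12. On the same step Rps4y2 had 0.33 ± 0.10 (adjusted p = 0.227) and Rps4x 0.09 ± 0.10 (adjusted p = 0.746), but the dimmer second probe of Rps4y2 gave 0.06. Rpl36al had 0.28 ± 0.11 (adjusted p = 0.32) and Rpl36a 0.18 ± 0.13 (adjusted p = 0.585), and the differences within the pairs were not tested.

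**Figure D5:**
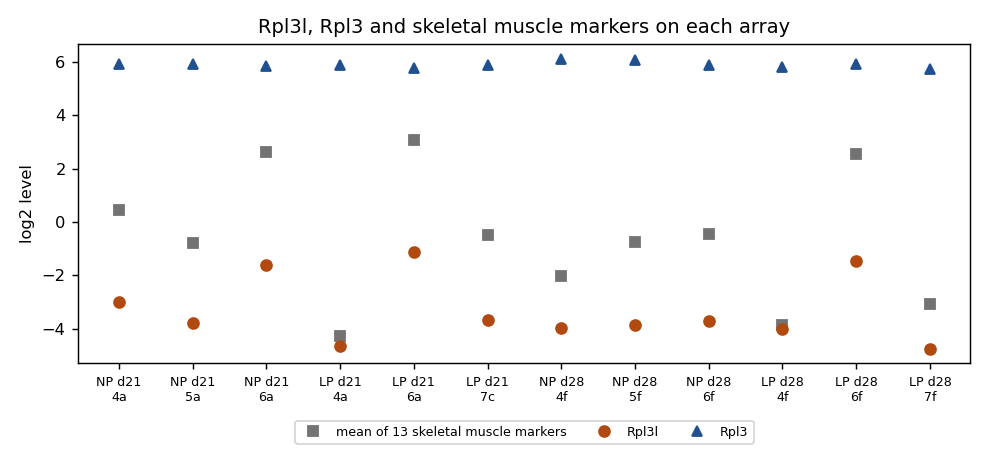
Log2 level of Rpl3l (circles), Rpl3 (triangles) and the mean of 13 skeletal muscle markers (squares) on each array. Rpl3l and the muscle markers are both highest on NP d21 replicate 6a, LP d21 replicate 6a and LP d28 replicate 6f, while Rpl3 lies between 5.73 and 6.13 throughout.

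Of the 83 genes, 47 had more than 1 probe. Their probes had the same sign in 46 of 47 genes between the days in NP and in 44 of 47 between LP and NP at day 28, but in 30 of 47 at day 21. Some probes of a gene were far dimmer than the brightest, as in Rpl36a (levels of 5.32, 4.96, 4.88 and -6.03) and Rpl28 (5.24, 3.69 and -5.38). Ribosomal protein genes have many processed copies in the genome, and the brightest probes of 7 of 80 genes with a placed position lay on another chromosome in the array annotation than the gene does in RefSeq. These were Rpl9, Rpl10a, Rpl12, Rpl13, Rpl32, Rpl37a and Rpl38, and how much signal a copy gives was not tested.

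Among the other genes of the translation pathway, the factors and proteins whose messenger RNAs also carry the tract form the first list. Of 18 on the array, 16 were higher at day 28 in NP (median 0.15), 2 of them past the unadjusted p (11.1%, against 7.9% of all tested probes). At day 28, 0 of 18 were higher in LP (median -0.14), and 1 passed it in the lower direction (5.56%, against 6.09%), so that both shares were near the background. These calls included Eif3h (0.29 ± 0.12, adjusted p = 0.34), a subunit of an initiation factor, in NP, and Eef1a1 at day 28 (-0.24 ± 0.11, adjusted p = 0.581), the elongation factor that brings transfer RNA to the ribosome. Fau, which encodes a small subunit protein fused to a ubiquitin-like one, had 0.25 and -0.26 in these comparisons.

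Of 45 ribosome biogenesis factors, 25 were higher at day 28 in NP (median 0.04), 0 past the unadjusted p upward and 2 downward (4.44%, against 4.9% of all tested probes). At day 28, 34 were lower in LP (median -0.05), 1 of them past the unadjusted p (2.22%, against 6.09%). Fbl, the nucleolar methyltransferase of ribosomal RNA, differed by 0.15 ± 0.17 between the days in NP and Ncl, nucleolin, by 0.26 ± 0.17. Of the 15 mTORC1 and Myc regulators, 9 were higher at day 28 in NP (median 0.02) and 6 higher in LP at day 28 (median -0.02), and 1 of 15 passed the unadjusted p between the days within each diet (6.67%, against 4.9% of all tested probes in NP and 5.65% in LP). In both diets this was Akt1, a kinase upstream of mTORC1, with -0.42 ± 0.14 (adjusted p = 0.27) in NP and -0.38 ± 0.14 (adjusted p = 0.411) in LP. Mtor had -0.21 ± 0.12 and Myc 0.23 ± 0.23 between the days in NP. The 70 mitochondrial ribosomal protein genes, which build the separate ribosome of that organelle, had medians of 0.01 between the days in NP and 0.10 between LP and NP at day 28, where 51 of 70 were higher in LP. No gene of these 4 lists passed an adjusted p of 0.05 in any of these comparisons.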

How the data were processed

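Total RNA of the lumbar mammary gland of 12 Wistar rats was measured on Agilent 1-colour rat arrays. The authors deposited, array by array, the processed intensity of the scanner, made by Agilent Feature Extraction 10.7.3.1 with background subtraction and detrending within the array and no scaling between arrays. The deposited value table, in which the signal had been scaled to the gene-spot median, equals the scanner values up to a constant per array (largest relative deviation 6.56e-05) and was used as an alternative. Probe positions and symbols are those of the array annotation (rn4).

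Control spots (4259) and outlier spots were left out, the array's 75th percentile was subtracted from its log2 intensities, and spots of a probe were averaged. A probe needed 0.5 of its spots called well above background to count as detected on an array. The 23209 probes detected on 3 or more of the 12 arrays were fitted with limma 3.58.1 (R 4.3.3, lmFit and eBayes, 4 group means, prior degrees of freedom 1.95), and p-values were adjusted over all of them by Benjamini-Hochberg. The contrasts were LP against NP at each day, day 28 against day 21 within each diet, and their interaction. Genes were named by role, or as the 3 highest and 3 lowest of each contrast between 2 groups, and genes past an adjusted p of 0.05 would have been added; some genes these rules pick are not reported here. Genes named for passing an unadjusted p, for not overlapping, for brightness or for a probe position were chosen after their values were seen. The ribosomal protein genes and all gene lists were chosen with earlier results of these data known. Precision is limited by 3 rats per group, and 3 against 3 rats cannot reach an exact two-sided permutation p below 0.1. The fit was tested on simulated data. Promoters and start sites were read from RefSeq (GRCr8). The statistical software with which the study called its genes was not repeated. Figures were drawn with Python 3.11.15 and matplotlib 3.10.9.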

Additional observations from a re-analysis of the deposited data

How the results depend on the processing

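No ribosomal protein gene passed an adjusted p of 0.05 in any comparison under any of the alternatives tried, and the sign of the median over the 83 genes held in all of them except for the step between the days in LP, which was 0.00 and marginally negative in 2 of 19 (quantile normalization and leaving out the 3 muscle-rich arrays). The median at day 21 was 0.00 without NP replicate 4a and without LP replicate 6a. Only the counts of genes past an unadjusted p, single genes and the size of the medians changed. For such counts the share of all tested probes was taken in the main fit alone, so that the counts under alternatives have no background beside them. Quantile normalization brought the median between LP and NP at day 28 from -0.19 to -0.05 with 0 genes past the unadjusted p instead of 9, that between the days in NP from 0.25 to 0.04 with 2 instead of 34, and that of the interaction from -0.14 to -0.03. It gives every array the same distribution of signal, and the cause of the difference in distribution was not tested. For the 9 genes of day 28, the count was 15 with centring on the median spot, 3 with no filter on dim probes, 2 with the arrays of day 28 alone, 17 with a trended and robust variance and 16 without the 3 muscle-rich arrays, an alternative chosen after seeing the data. For the 34 genes of NP it was 14 with the arrays of NP alone and 6 without those 3 arrays. A count of 0 became 1 for the interaction with centring on the median spot, with probes above background on all 12 arrays, with a trended and robust variance and with the row on the slide, and for LP between the days with normexp.

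The labels do not say whether replicate numbers pair the rats. Rats of the same diet and number on both days correlated between -0.06 and 0.38 in their deviations, over 0.1 in 4 of 6 pairs, and the best partner of the day 28 rat was its own number in 5 of 6. This is a hint of pairing from the data, and the numbers were not treated as a pairing because it did not hold in every pair. As a block, the replicate label joins LP and NP rats of the same label, whose dams were on different diets. The deviations of such rats correlated between 0.09 and 0.13. With this block, 1 gene passed the unadjusted p at day 21 and 0 at day 28, with 2 residual degrees of freedom. With diet and number as a block (4 residual degrees of freedom), 19 passed between the days in NP.

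Leaving out 1 array at a time gave 0 to 1 genes at day 21, 0 to 20 at day 28, 6 to 42 in NP, 0 to 4 in LP and 0 to 3 for the interaction.

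None of the genes named here passed an adjusted p in any alternative, and several near 0 or with a wide spread turned sign. With normexp Rpl22l1 had -0.15 at day 28. With the row on the slide Rpl3l had -0.63 and Rpl13 0.02 at day 28. The mean over the probes of a gene gave -0.04 for Rpl35 and -0.01 for Rpl35a at day 21, -0.06 for Rpl22l1 at day 28 and 0.05 for Rplp0 in LP, and the second brightest probe -0.13, -0.06, -0.15 and 0.18. Without the 3 muscle-rich arrays the values were -0.12 for Rpl10l at day 21, -0.54 for Rpl3l and -0.10 for Rpl22l1 at day 28 and 0.02 for Rpl11 in LP. Leaving out 1 array gave -0.03 to 0.21 for Rpl35a and -1.37 to 0.41 for Rpl3l at day 21, -0.54 to 1.11 for Rpl3l and -0.10 to 0.09 for Rpl22l1 at day 28, and -1.24 to 0.75 for Rpl3l and -0.12 to 0.01 for Rpl11 in LP.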
